A study of Homo sapiens with 6 samples.

Results

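The genes described here were 10 noncoding host genes of small nucleolar RNAs (snoRNAs): GAS5, ZFAS1, SNHG1, SNHG3, SNHG5, SNHG6, SNHG7, SNHG8, SNHG12 and SNHG15. They were taken by name from the deposited tables, where each name stood on 1 row of 19491. RNA was sequenced from PC-3 cells, an androgen-independent line from a prostate adenocarcinoma. The control cells were untreated. The other cells received the glutamine analogue GPNA at 1 mM or benzylserine (BenSer) at 10 mM. Both were used to block glutamine uptake through the transporter ASCT2. The study proposes that BenSer also acts beyond ASCT2, and cites its inhibition of the transporter LAT1 in oocytes. The time of treatment was 48 h. All groups were the same cell line, so the data describe 1 line only, and ASCT2 was not genetically altered in any of them.

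Most human snoRNAs are cut out of the introns of host genes, and they guide 2′-O-methylation (C/D box) or pseudouridylation (H/ACA box) of ribosomal and other RNAs. In the noncoding hosts the spliced exons hold no long conserved reading frame. The exon RNA of hosts such as GAS5 is nevertheless engaged by ribosomes at short reading frames with early stop codons, and nonsense-mediated decay then destroys it as it is translated, so these RNAs accumulate when translation is blocked. Many hosts start transcription at a C within a run of pyrimidines, the 5′ terminal oligopyrimidine start that they share with ribosomal protein genes. RNA-seq as used here gives the amount of exon RNA present, and neither its synthesis nor its decay was measured.

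The bases around the start of transcription are shown because they are a feature that the choice of the genes did not use. RefSeq start windows existed for 8 of the hosts, each was found at 1 place in GRCh37, and they are printed from 40 bases before to 20 bases from the start, in the direction of transcription. Capitals mark TATAA where it lies between 40 and 21 bases before the start, and the run of at least 5 pyrimidines that holds a C at the first transcribed base.
GAS5: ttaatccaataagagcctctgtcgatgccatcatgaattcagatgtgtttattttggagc
ZFAS1: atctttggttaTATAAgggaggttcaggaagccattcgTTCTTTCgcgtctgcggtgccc
SNHG1: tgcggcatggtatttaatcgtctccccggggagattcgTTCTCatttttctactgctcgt
SNHG3: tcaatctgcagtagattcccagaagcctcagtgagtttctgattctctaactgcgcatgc
SNHG5: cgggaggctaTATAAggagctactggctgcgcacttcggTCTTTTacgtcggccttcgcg
SNHG7: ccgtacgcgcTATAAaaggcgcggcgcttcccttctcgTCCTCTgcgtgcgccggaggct
SNHG8: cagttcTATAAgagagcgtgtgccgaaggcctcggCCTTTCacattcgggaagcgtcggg
SNHG12: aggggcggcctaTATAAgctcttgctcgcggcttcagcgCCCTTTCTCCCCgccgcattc

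These windows lie at chr1:173838164-173838223 on the minus strand (GAS5), chr20:47895139-47895198 on the plus strand (ZFAS1), chr11:62623338-62623397 on the minus strand (SNHG1), chr1:28832415-28832474 on the plus strand (SNHG3), chr6:86388432-86388491 on the minus strand (SNHG5), chr9:139622617-139622676 on the minus strand (SNHG7), chr4:119199877-119199936 on the plus strand (SNHG8) and chr1:28908366-28908425 on the minus strand (SNHG12). A C start within such a run was present in 6 of 8 windows, with 5 to 12 pyrimidines, against 7.32% of the 35116 promoters in the RefSeq table. GAS5 had an A at the annotated first base and SNHG3 a G. Both of these RefSeq starts lie upstream of the gene as annotated in GENCODE v44. That of SNHG3 is the GENCODE start of RCC1, which overlaps it. The windows of GAS5 and SNHG3 therefore do not show the bases at their other annotated starts. TATAA was present in 5 of 8, against 3.77% of all promoters, and the same 5 hosts held both features, which 0.214% of all promoters did. Only the sequence in the direction of transcription was searched, and both features were chosen with these sequences in view. The other lists held few promoters, some of them several for 1 gene. Among the 21 promoters of snoRNA-hosting ribosomal protein genes, 57.1% had the C start with its run and 4.76% had TATAA. The shares were 27.3% and 9.09% for other noncoding snoRNA hosts (11 promoters), and 30% and 25% for other coding hosts (20 promoters). For mRNA targets of nonsense-mediated decay (12 promoters) they were 0% and 33.3%. They were 12.5% and 0% for snoRNP proteins (16 promoters), and 4.76% and 0% for exonuclease and decapping genes (21 promoters). No promoter of a nonsense-mediated decay factor, of 29 in the table, had either feature.

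Each library held 23077986 to 32178154 reads, of which 51.6% to 52.7% fell on listed genes. The epithelial markers KRT8 (289 reads per 1000000 reads of the library, CPM), KRT18 (108 CPM) and EPCAM (97.8 CPM) and the mesenchymal VIM (187 CPM) were present in the control. Of the markers of other cell types, the fibroblast collagen COL1A1 was listed at 5.57 CPM, and the leukocyte PTPRC and the endothelial PECAM1 were not analysed here. The libraries of each pair differed slightly more than repeated draws of reads would (chi-square per degree of freedom 1.06 for control, 1.04 for GPNA and 1.05 for BenSer, with p = 1.29e-08, 3.25e-05 and 9.59e-06 over 15623 to 16498 genes). The excess was small, and each pair was counted as 1 sample. With 1 sample per group there was no replicate check and no p-value for either treatment. Each interval is a 95% Clopper-Pearson interval (exact) from the reads of both libraries added together, and it covers only the error of counting. Differences are between groups in log2 of mean CPM plus 1, a scale that understates the change of low genes.

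SNHG3 had the highest level of the hosts in CPM. Its control libraries had 134 and 144 CPM, and it made up 44.3% to 46.1% of the summed CPM of the hosts. SNHG1 followed with 59.2 and 64.7 CPM, and SNHG7 was lowest with 4.78 and 3.99 CPM. Per kilobase of the canonical transcript in GENCODE v44 lifted to GRCh37, the control levels ran from SNHG3 (63.2 CPM per kb), SNHG1 (53.3) and GAS5 (31.7) down through SNHG12 (7.51), ZFAS1 (6.52), SNHG5 (5.84), SNHG6 (3.24) and SNHG15 (3.18) to SNHG7 (1.86) and SNHG8 (1.82). In that order the control libraries of SNHG6 and SNHG15 overlapped, as did those of SNHG7 and SNHG8, and the other neighbours were apart. The canonical transcripts of ZFAS1 (4526 bases) and SNHG8 (6166 bases) are the longest, so their place depends most on the transcript used.

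**Figure D1:**
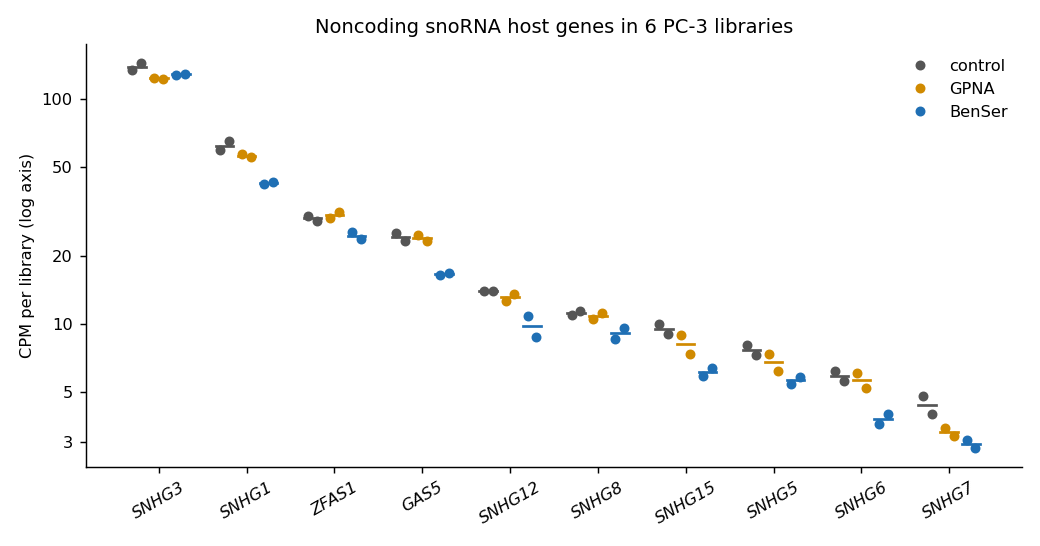
CPM of the 10 host genes in each of the 6 libraries on a log axis, ordered by control mean, with points for libraries and short lines for the mean of each pair. The BenSer points lie below both control points for every host, by the smallest distance in SNHG3 (128 and 129 CPM against 134 and 144 CPM).

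With BenSer, all 10 hosts were lower than in the control beyond counting error. The interval lay below 0 for 10 of 10, against 25.8% of the 18976 genes kept, those that averaged 5 reads or more per library in control or treated cells. Genes with few reads have wide intervals, and among the 10248 genes with at least as many control reads as SNHG7, the host with fewest (203), the share was 38.2%. With TMM scaling 21.4% of all genes were below 0 and 22.3% above, and all 10 hosts were still below. Both BenSer libraries were below both control libraries for 10 of 10 hosts, against 37.5% of all genes. The median difference was −0.47, from −0.56 (SNHG15) to −0.12 (SNHG3), and the median over all genes was −0.03. On the scale of CPM plus 1 none of the 10 was as much as 1.5-fold lower, a size reached by 1.58% of all genes. SNHG15 and SNHG6 were past 1.5-fold in mean CPM itself, which fell by 35.8% and 35.7%, and with a pseudocount of 0.1 CPM (−0.63 and −0.62). With a single library left out, SNHG1, SNHG6, SNHG12 and SNHG15 each passed 1.5-fold at least once (−0.63 to −0.59).

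GAS5, the growth arrest-specific host of a series of C/D box snoRNAs, had 25.3 and 23.4 CPM in untreated cells, 24.9 and 23.4 CPM under GPNA and 16.5 and 16.8 CPM under BenSer. The BenSer libraries stood apart from the other four, which overlapped. The difference from control was −0.52 with BenSer (interval −0.64 to −0.40) and −0.01 with GPNA (−0.12 to 0.10). Mean CPM fell by 31.6% with BenSer. The sign of the GPNA value was not settled, since it was 0.02 to 0.03 under the 3 other scalings, 0.04 without control library 1 and 0.03 without GPNA library 2. GAS5 lies on the minus strand at chr1:173827697-173838020, and its canonical transcript has 12 exons.

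SNHG1, the host of SNORD22 and of SNORD25 to SNORD31, was the second most abundant. It had 59.2 and 64.7 CPM in untreated cells, 56.6 and 55.3 CPM under GPNA and 42.0 and 42.8 CPM under BenSer. The groups did not overlap, and GPNA lay between control and BenSer. The differences from control were −0.54 with BenSer (−0.61 to −0.46) and −0.14 with GPNA (−0.22 to −0.07). Without control library 2 the GPNA difference was −0.08 and its interval included 0. SNHG1 lies on the minus strand at chr11:62619450-62623425.

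SNHG15, which carries SNORA9, had the lowest difference with BenSer. Its libraries held 10.0 and 9.06 CPM in untreated cells, 8.95 and 7.39 CPM under GPNA and 5.87 and 6.39 CPM under BenSer. The difference from control was −0.56 with BenSer (−0.74 to −0.39) and −0.20 with GPNA (−0.38 to −0.02). The GPNA interval came close to 0, and it included 0 under each of 3 other scalings of the reads (−0.17 in all of them), without control library 1 (−0.13) and without GPNA library 2 (−0.08). With BenSer the intervals of SNHG15, SNHG1, SNHG6, GAS5, SNHG12 and SNHG7 overlapped, so their order was not resolved.

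SNHG6, the host of SNORD87, had 6.20 and 5.59 CPM in untreated cells, 6.05 and 5.19 CPM under GPNA and 3.60 and 3.98 CPM under BenSer. As for GAS5, control and GPNA overlapped and BenSer was apart from both, with a difference of −0.53 from control (−0.73 to −0.32). The GPNA difference of SNHG6 was −0.06 (−0.27 to 0.15), and turned to 0.01 without control library 1 and 0.03 without GPNA library 2. SNHG12, which carries SNORA44, SNORA61, SNORA16A and SNORD99, had 14.1 and 14.0 CPM in untreated cells, 12.7 and 13.6 CPM under GPNA and 10.8 and 8.77 CPM under BenSer. Its difference was −0.48 with BenSer (−0.63 to −0.33) and −0.09 with GPNA (−0.24 to 0.06).

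SNHG7, the host of SNORA17 and SNORA43, had the lowest level in CPM. Its libraries held 4.78 and 3.99 CPM in untreated cells, 3.45 and 3.18 CPM under GPNA and 3.05 and 2.82 CPM under BenSer. The differences were −0.32 with GPNA (−0.56 to −0.08) and −0.45 with BenSer (−0.68 to −0.22), on 203, 170 and 188 merged reads in the 3 groups. The GPNA interval overlapped those of SNHG15, SNHG3 and SNHG1, so the order of these hosts with GPNA was not resolved. The intervals of both treatments overlapped, and BenSer was not separable from GPNA (−0.13, −0.37 to 0.10). The GPNA interval of SNHG7 included 0 without control library 1 (−0.21) and without GPNA library 2 (−0.27).

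SNHG5, the host of the SNORD50 pair, had 8.05 and 7.32 CPM in untreated cells, 7.36 and 6.17 CPM under GPNA and 5.44 and 5.82 CPM under BenSer, a difference of −0.39 with BenSer (−0.58 to −0.20). SNHG8, the host of SNORA24, had 11.0 and 11.4 CPM in untreated cells, 10.5 and 11.2 CPM under GPNA and 8.58 and 9.61 CPM under BenSer, a difference of −0.27 (−0.43 to −0.12). In both, control and GPNA libraries overlapped and the GPNA interval included 0, but that of SNHG5 lay below 0 without GPNA library 1 (−0.28).

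ZFAS1, which is antisense to the start of ZNFX1 and hosts the SNORD12 family, had the smallest difference with BenSer after SNHG3, with an interval that overlapped those of SNHG8 and SNHG5 among others. Its libraries held 30.3 and 28.8 CPM in untreated cells, 29.5 and 31.5 CPM under GPNA and 25.6 and 23.8 CPM under BenSer. The difference was −0.25 with BenSer (−0.35 to −0.15) and 0.05 with GPNA (−0.06 to 0.15).

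SNHG3, the host of SNORA73A and SNORA73B, was the 1 host with a higher level under BenSer than under GPNA. It had 134 and 144 CPM in untreated cells, 124 and 123 CPM under GPNA and 128 and 129 CPM under BenSer. The difference was −0.12 with BenSer (−0.16 to −0.07) and −0.17 with GPNA (−0.22 to −0.12), and BenSer was higher than GPNA by 0.06 (0.01 to 0.10). The BenSer interval of SNHG3 overlapped those of ZFAS1 and SNHG8. The control libraries lay further from each other than control library 1 did from either BenSer library. The difference with BenSer was −0.16 without control library 1, −0.06 without control library 2 and −0.07 with the size factors of DESeq2.

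**Figure D2:**
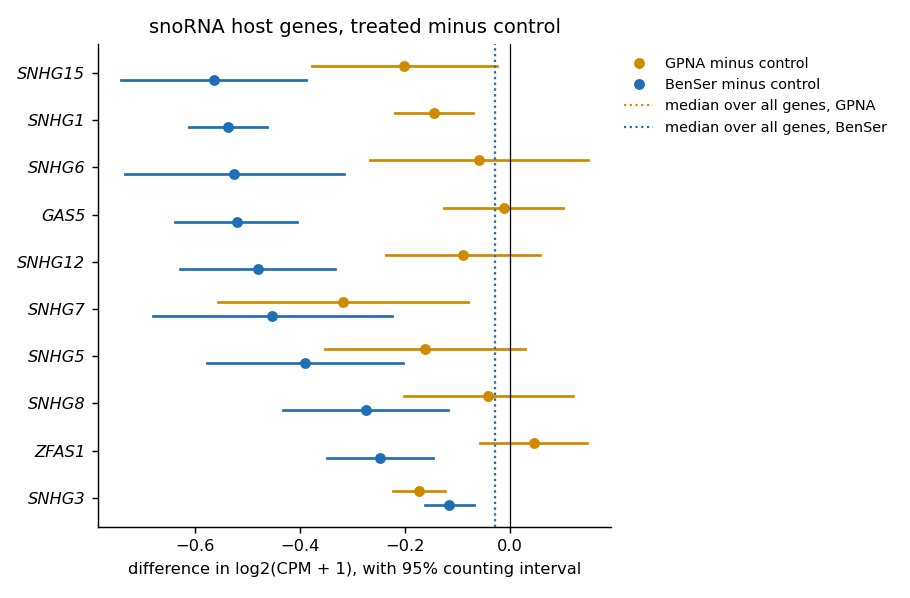
Difference in log2 of CPM plus 1 from control for each host, with 95% counting intervals for GPNA and BenSer and dotted lines at the medians over all genes, which coincide at −0.03. Every BenSer interval lies below 0, whereas 6 of the 10 GPNA intervals include it.

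With GPNA, 4 of the 10 hosts had intervals below 0 (SNHG1, SNHG3, SNHG7 and SNHG15) and 0 of 10 above it. Over all 18828 genes with enough reads the shares were 20.1% below and 9.78% above, and 32.8% were below 0 among genes with at least 203 control reads, so the count in the hosts was near that background. With TMM scaling the shares of all genes were 14.6% below and 13.7% above, and 3 of the 10 hosts were below. Both GPNA libraries were below both control libraries for 5 of 10 hosts (the same 4 and SNHG12), against 34.4% of all genes. The median over the hosts was −0.12, against −0.03 over all genes. No host was 1.5-fold lower, as 0.0637% of all genes were.

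Between the treatments, 8 of 10 hosts were lower with BenSer than with GPNA beyond counting error, against 20.7% of all 19056 genes and 28.9% of those with at least 203 control reads. SNHG3 was the 1 host above 0, where 21.2% of all genes were, and SNHG7 was the host whose interval included 0. Both BenSer libraries were below both GPNA libraries for 9 of 10, against 33.6% of all genes, and no host was 1.5-fold lower, against 0.813%. GAS5 had the lowest of these differences (−0.51, −0.62 to −0.40), followed by SNHG6 (−0.47, −0.67 to −0.26). The intervals of 3 hosts in this comparison came to include 0 when a library was left out: SNHG5 without GPNA library 1 (−0.11) or BenSer library 1 (−0.19), SNHG8 without GPNA library 2 (−0.19) or BenSer library 1 (−0.16), and SNHG3 without GPNA library 2 (0.05) or BenSer library 2 (0.055). That of SNHG3 also included 0 when reads were scaled to the listed genes (0.04). The doses of the compounds differed, so these values stand side by side without a comparison of potency, and both treatments were set against the same control libraries.

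The summed level of the 10 hosts was 303 and 312 CPM in untreated cells, 284 and 279 CPM under GPNA and 249 and 249 CPM under BenSer. Without SNHG3 it was 169 and 168 CPM, 160 and 157 CPM, and 121 and 121 CPM. SNHG3 thus made up a larger part of the host RNA with BenSer, 51.3% and 51.5%, than in the control.

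Of 36 snoRNA names set down for these hosts, 5 were rows of the tables, and all of them lie in introns of the canonical host transcript. The recovery of such short RNAs by the libraries is not given in the sources used here. SNORD99 of SNHG12, in which TGATGA did not occur, is not printed. The sequences of the SNORD12 family in ZFAS1 and of SNORA73B in SNHG3 are shown. They are read from GRCh37, and capitals mark the C box (TGATGA) and the D box (CTGA) of the C/D box snoRNAs and the ACA box of SNORA73B.
SNORD12: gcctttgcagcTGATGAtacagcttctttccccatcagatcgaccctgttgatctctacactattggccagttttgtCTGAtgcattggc
SNORD12B: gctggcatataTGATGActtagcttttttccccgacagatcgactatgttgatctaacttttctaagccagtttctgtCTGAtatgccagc
SNORD12C: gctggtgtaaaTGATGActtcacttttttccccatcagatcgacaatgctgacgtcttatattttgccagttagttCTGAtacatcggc
SNORA73B: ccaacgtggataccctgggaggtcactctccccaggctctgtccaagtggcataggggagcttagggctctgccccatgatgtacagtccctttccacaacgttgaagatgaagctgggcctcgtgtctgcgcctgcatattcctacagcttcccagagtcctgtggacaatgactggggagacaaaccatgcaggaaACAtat

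The ZFAS1 snoRNAs lie on the plus strand at chr20:47897220-47897309 (SNORD12), chr20:47896856-47896946 (SNORD12B) and chr20:47895477-47895565 (SNORD12C), and in each the C box begins at base 12 and 9 bases follow the D box. SNORD12B had 1.21 and 1.65 CPM in untreated cells, 0.969 and 1.14 CPM under GPNA and 0.715 and 0.845 CPM under BenSer. Its difference was −0.45 with BenSer (−0.72 to −0.16), below 0 as for its host ZFAS1, and −0.24 with GPNA (−0.53 to 0.06). SNORD12 rested on 19 reads in untreated cells, 8 under GPNA and 8 under BenSer, with differences of −0.29 (−0.49 to −0.03) and −0.33 (−0.51 to −0.09), and SNORD12C on 10, 9 and 4 reads.

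SNORA73B lies on the plus strand at chr1:28835071-28835274 and is one of the snoRNAs that act in cleavage of the ribosomal RNA precursor. It had 126.6 and 133.2 CPM in untreated cells, 126.5 and 124.9 CPM under GPNA and 145.5 and 149.2 CPM under BenSer. Both BenSer libraries were above the other four. The difference with BenSer was 0.18 (0.13 to 0.23), while the exons of its host SNHG3 gave −0.12, and with GPNA it was −0.05 (−0.10 to 0.004) against −0.17. SNORD99 of SNHG12, with 22, 28 and 21 reads, had intervals that included 0 with both treatments.

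Some hosts share their start with a protein-coding gene, and these neighbours were listed after some of their values had been seen. Starts and distances here are those of GENCODE v44, which differ from the RefSeq starts of the windows for SNHG1, ZFAS1 and GAS5. SLC3A2, the heavy chain that the amino acid transporters of the SLC7 family need at the membrane, starts 51 bases from SNHG1 on the opposite strand. It had 60.8 and 57.0 CPM in untreated cells, 71.0 and 72.1 CPM under GPNA and 109.8 and 104.1 CPM under BenSer. SLC3A2 was therefore higher with both treatments, by 0.28 (0.21 to 0.35) and 0.85 (0.79 to 0.91), where SNHG1 was lower. With BenSer the same opposite order held at ZFAS1 and ZNFX1, a zinc finger helicase whose start lies 248 bases away on the other strand. ZNFX1 had 62.3 and 64.4 CPM in untreated cells, 71.0 and 72.8 CPM under GPNA and 103.8 and 101.3 CPM under BenSer, a difference of 0.69 with BenSer (0.62 to 0.75). With GPNA both ZNFX1 (0.18, 0.11 to 0.25) and ZFAS1 had values above 0, and the interval of ZFAS1 included 0. At GAS5, ZBTB37 starts on the opposite strand, 800 bases from the start of GAS5 and within it, so the genes overlap. ZBTB37 had differences of 0.13 with GPNA and 0.02 with BenSer, and both intervals included 0.

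RCC1, the nucleotide exchange factor of the GTPase Ran, runs on the same strand as SNHG3 and overlaps it, and was lower with GPNA (−0.27, −0.34 to −0.19) and with BenSer (−0.40, −0.47 to −0.32). The library kit kept the strand, but the strand setting of the counting is not given in the sources used here. How reads on overlapping genes were assigned could not be checked. It bears on SNHG3, ZFAS1, GAS5 and the other hosts that listed genes overlap, SNHG8 among them. A protein-coding gene on the opposite strand covers most of the SNHG8 locus, so the values of SNHG8 carry the same limit.

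**Figure D3:**
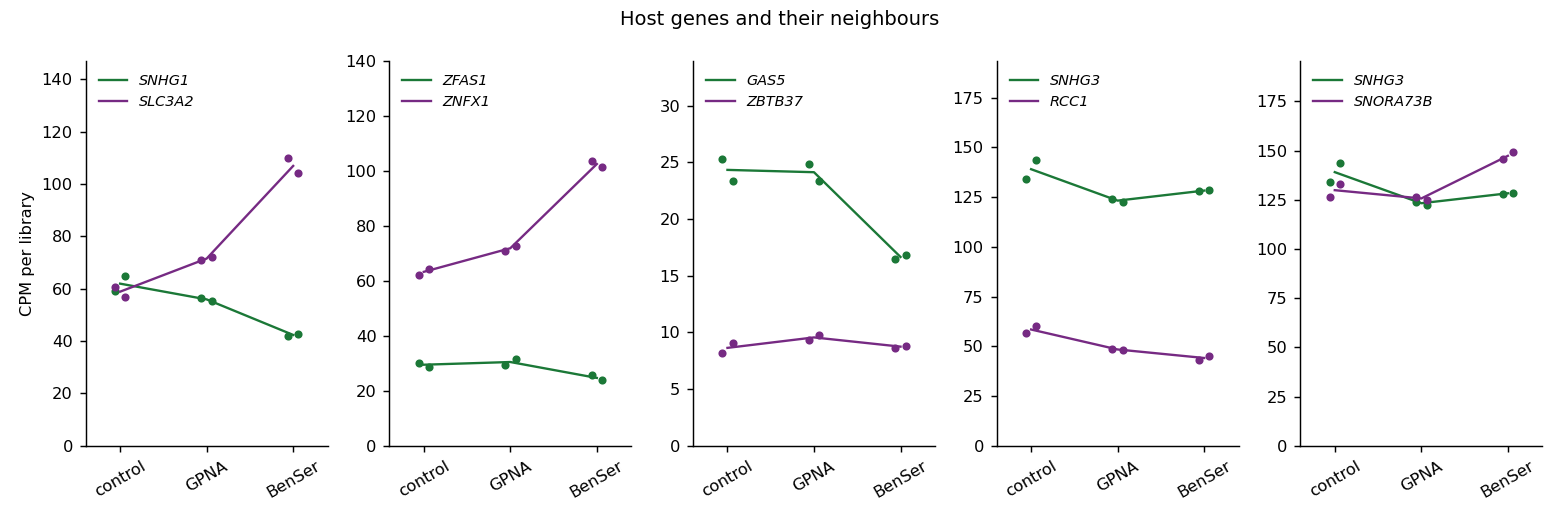
CPM per library, from 0, of 4 neighbours and an intronic snoRNA beside their host gene, with lines through the means of control, GPNA and BenSer. SLC3A2 and ZNFX1 climb with BenSer where SNHG1 and ZFAS1 decline, RCC1 declines, and SNORA73B is highest with BenSer.

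Other genes of the same biology were described by counts of intervals on either side of 0 and by medians, beside the shares of all genes given above. Of 9 further noncoding snoRNA hosts in the tables, 7 were below 0 and 1 above it with BenSer (median −0.27). DANCR was lowest (−0.51, −0.66 to −0.36) and SNHG18 highest (0.52, 0.31 to 0.73). With GPNA, 4 of these 9 were below 0 and 1 above (median −0.20), from SNHG11 (−0.28) to SNHG18 (0.35).

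Ribosomal protein genes that host snoRNAs code for subunits of the ribosome and share the pyrimidine start. With BenSer 23 of 24 were below 0 and none above (median −0.32), from RPL12 (−0.67, −0.70 to −0.64) to RPL39 (−0.12, −0.18 to −0.05). With GPNA they were split, with 8 below 0 and 7 above (median −0.03, and 0.01 with TMM scaling), from RPL23A (−0.15) to RPL39 (0.13). Of 18 other protein-coding hosts, many of them translation factors and chaperones, 16 were below 0 with BenSer (median −0.30), the lowest being the elongation factor subunit EEF1B2 (−0.63, −0.68 to −0.58). RNF149 was highest (0.11) with an interval that included 0. With GPNA 12 of the 18 were below 0 and 1, EIF4A2 (0.06, 0.01 to 0.10), above it (median −0.09), and NOP56 was lowest (−0.23).

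The proteins that bind snoRNAs or assemble them into particles were also lower with BenSer in most cases, with 13 of 18 below 0 and none above (median −0.33). The H/ACA core protein GAR1 was lowest (−0.64, −0.84 to −0.44). With GPNA 11 of 18 were below 0 and none above (median −0.16), and the C/D box methyltransferase FBL was lowest (−0.42, −0.52 to −0.33). ZNHIT3, an assembly factor, was highest with both treatments, and its intervals included 0.

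The factors of nonsense-mediated decay recognise early stops during translation. With GPNA 16 of 21 were below 0 and 1 above (median −0.14), and 11 were below with TMM scaling. They ran from the helicase DHX34 (−0.35, −0.50 to −0.19) to NBAS (0.10, 0.03 to 0.18). With BenSer 11 were below 0 and 3 above (median −0.09), from the exon junction protein MAGOHB (−0.73, −0.91 to −0.54) to the phosphatase adaptor SMG5 (0.31, 0.26 to 0.35). Of 22 exonuclease, exosome and decapping genes, 4 were below 0 and 2 above with GPNA (median −0.06), from EXOSC4 (−0.30) to the 5′ exonuclease XRN1 (0.25, 0.15 to 0.34). With BenSer 11 were below 0 and 3 above (median −0.14), from EXOSC2 (−0.46) to DCP1A (0.34).

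The mRNAs known as targets of nonsense-mediated decay went the other way from the hosts. With BenSer 7 of 8 were above 0, against 18.2% of all genes, and 1 was below (median 0.34). ASNS, asparagine synthetase, was highest (1.18, 1.09 to 1.27), and GADD45A, a stress-induced growth arrest gene, was below 0 (−0.17, −0.29 to −0.06). With GPNA 6 of 8 were above 0 and none below (median 0.14), again with ASNS highest (0.71, 0.62 to 0.80). Most of these mRNAs, ATF4 and ASNS among them, are also genes of the amino acid stress response, so the list is not one of decay alone. RNA decay was not measured, and its part in these values was not tested.

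**Figure D4:**
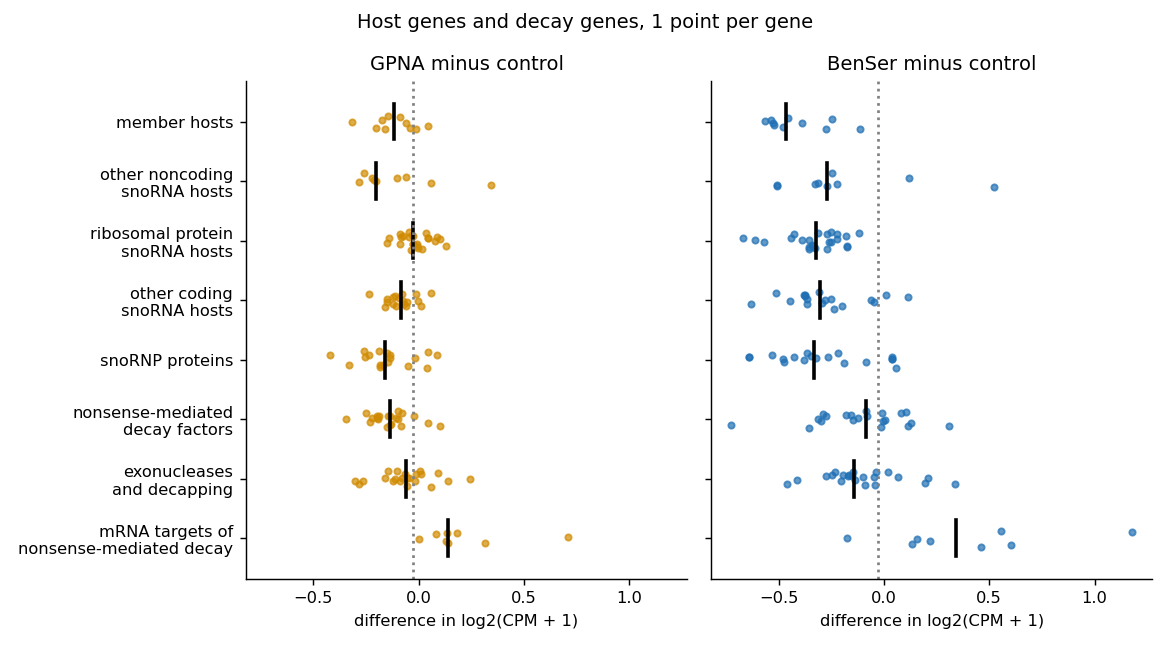
Differences from control in log2 of CPM plus 1, with 1 point per gene, black bars at the median of each list and dotted lines at the medians over all genes, for GPNA and BenSer. With BenSer all 4 lists of hosts and the snoRNP proteins have medians between −0.47 and −0.27, and the mRNA targets of nonsense-mediated decay have a median of 0.34.

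The genes whose pair of differences lay nearest to the median pair of the hosts, by Euclidean distance over the 2 treatments, were DNA2, ZDHHC2, CDCA2, MRPL11 and FABP5, at distances of 0.006 to 0.016. DNA2 had 33.9 CPM in untreated cells, 31.0 CPM under GPNA and 24.3 CPM under BenSer. The pattern was not rare, since 290 of the 7940 genes with at least 10 CPM in untreated cells, 3.65%, lay within a distance of 0.1.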

How the data were processed

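PC-3 libraries were grouped as control, GPNA and BenSer by their labels, 2 libraries per group. According to the submitters' processing notes and the methods, stranded total RNA reads were mapped to hg19 (GRCh37.p13) with TopHat2. The notes also name Bowtie2, HTSeq 0.6.2p2 and DESeq. The authors deposited CPM (reads per 1000000 reads of the library), in columns named as counts. All values (100%) were whole reads over the library total within 0.01, so reads were recovered. The 8 value columns matching no label were not used. The authors' deposited log2 fold changes, log2 CPM, p-values and false discovery rates are their own comparisons and were not used.

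Columns 1 and 2 of a group were checked by chi-square, using genes whose pair held 20 reads or more, and merged to 1 sample. The study's methods describe more replicates per group than the labels name, and nothing in the labels says that these came from separate cultures. Differences are in log2 of mean CPM with a pseudocount of 1. Genes averaging 5 reads or more per library in one of the groups were kept, and were called by a 95% Clopper-Pearson interval on 1 side of 0 or by 1.5-fold. The intervals cover counting error only, and library totals of 23077986 to 32178154 reads set their width. Scripts were tested on simulated data. Alternatives were scalings (TMM, DESeq2 size factors, listed genes), pseudocounts, filters, fold thresholds, single libraries left out, and the quasi-likelihood test of edgeR 4.0.16 and the Wald test of DESeq2 1.42.0 in R 4.3.3 on recovered reads. Python 3.11.15, numpy 2.4.6, pandas 2.3.3, scipy 1.17.1 and matplotlib 3.10.9 were used.

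The members and lists were chosen with earlier results of these data known. Named genes are all members, the lowest and highest gene of each list with at least 100 control reads, snoRNAs of the hosts with at least 20 reads over the groups compared (SNORD12C is an exception, given as reads), and the 5 genes nearest to the median pair of the members with at least 10 CPM in the control. Neighbours and 2 sequence features were chosen after values or sequences had been seen. Loci come from GENCODE v44 lifted to GRCh37. Start windows come from the RefSeq table (GRCh38.p14) and were located in GRCh37 by exact match. Older symbols (GNB2L1, NHP2L1, CARS) were kept as the tables give them. Values of 2 genes, a marker and a neighbour, are not reported here.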

Additional observations from a re-analysis of the deposited data

How the results depend on the processing

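With BenSer all 10 hosts kept intervals below 0 under each of 3 other scalings, 2 other pseudocounts and without any 1 library. Their median was −0.28 with a pseudocount of 5 CPM, by its construction nearer to 0. With GPNA the 4 hosts below 0 became 2 to 5 without single libraries, with 2 without control library 1 and 2 without GPNA library 2, and 3 under each other scaling. Against GPNA, BenSer gave 6 to 8 hosts below 0. The count of genes past 1.5-fold was 76 for GPNA, 671 for BenSer and 356 between them. It became 1531, 2602 and 2173 with a pseudocount of 0.1, 31, 273 and 117 with 5, 1054, 3357 and 2657 at the lower of the other fold thresholds, and 9, 92 and 30 at 2-fold. Leaving out single libraries gave 99 to 113, 696 to 749 and 390 to 413. The adjusted p here weighs each difference against the spread between the libraries of a group, which are not known to be separate cultures. It therefore does not cover the spread between repeated treatments. At an adjusted p under 0.05, edgeR called 2853, 6803 and 6436 genes in either direction. Those called lower were 1553 of 18828, 3331 of 18976 and 3037 of 19056 genes. Of the 10 hosts, 1, 9 and 7 were lower (SNHG3 alone with GPNA, and all but SNHG3 with BenSer). DESeq2 called 979, 3955 and 3508 genes, of which 534, 1939 and 1567 were lower, with 1, 5 and 5 hosts lower. With a replicate block edgeR called 2212, 6189 and 6326 genes, of which 1208, 3013 and 2980 were lower. The block left the edgeR counts of hosts the same. Same-numbered libraries deviated together with correlations of 0.013, 0.018 and 0.035. Counting error made up most of the deviations (chi-square per degree of freedom 1.04 to 1.06), so even paired libraries would give low correlations here. Whether the numbers pair the libraries was therefore left undecided. The depth, 170 to 203 reads for SNHG7, cannot show small changes of the lowest hosts. Applied to the other gene lists after the data were seen, the other scalings turned the median of the ribosomal protein hosts with GPNA to between 0.004 and 0.014 and turned no other list's median.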
